A study of Rattus norvegicus with 12 samples.

Results

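The COMB group consisted of rats that received LPS together with hypobaric hypoxia, and its gene expression in the cells of bronchoalveolar lavage fluid (BALF) was compared with that of the CTL group. The members were 3 COMB arrays and 3 CTL arrays of the 12 arrays in the series, taken by the group named in each sample's source, and all 12853 genes tested on them. The sample titles spell the same group COMP. All groups were Sprague-Dawley rats aged 8 weeks. COMB rats were given LPS at 0.5 mg/kg into the tail vein and kept for 6 h in a chamber that simulated an altitude of 5000 m, with a pressure of 405.35 mmHg and 11.2% oxygen. LPS rats had the same injection in normal air, HPO rats had the chamber without LPS, and CTL rats had saline in normal air. Each array held RNA pooled from several rats, so the spread between arrays is a spread between pools and not between single animals. The sample titles list biological replicates 2 and 3, 10 and 11, and 12, 13 and 14 for the COMB pools. These numbers are taken as rats, and the pools are called COMB-a, COMB-b and COMB-c. The paper describes pools of 3 animals, while COMB-a and COMB-b have 2 numbers each. The CTL pools held rats 1, 3 and 4, rats 5, 6 and 7, and rats 8, 9 and 10, and are called CTL-a, CTL-b and CTL-c. Values of single arrays are given in that order. With 3 pools a group, the p values measure only the spread between these pools. The study asked how systemic inflammation and low oxygen act together in acute lung injury. The question taken up here is which gene classes moved in the lavage cells when both were given, beyond the Toll-like receptor and cytokine genes.

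Lavage cells of a resting lung are mainly alveolar macrophages. As background, these cells take up and degrade spent surfactant, which is rich in phospholipid and cholesterol. The transcription factor PPARγ, encoded by Pparg, maintains their identity and the genes with which they store, export and burn lipid. Lysosomes break the engulfed material down, and mitochondria and peroxisomes oxidise the fatty acids that are released. LPS, a wall component of Gram-negative bacteria, switches macrophages toward glycolysis and the secretion of cytokines, and low oxygen by itself limits mitochondrial oxidation.

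Array medians lay between 32.72 and 35.61 intensity units. They were 35.61, 34.87 and 34.54 in COMB and 32.72, 34.48 and 33.74 in CTL, so each COMB median lay above each CTL median. The 12 housekeeping genes that were measured had a median log2 difference of 0.00 between COMB and CTL with none past the test. The macrophage genes Mrc1 and Cd68 were strongly expressed in every array and did not pass the test. Of the 15 measured alveolar macrophage markers (21 listed), which include both, 7 were lower and 1 higher. Their summed intensity was 32325 to 35004 in COMB arrays and 38685 to 40890 in CTL arrays. Mrc1, the mannose receptor, had intensities of 6946, 5404 and 6703 in COMB, against 6082, 5985 and 6401 in CTL. Markers of other cell types moved as well. The summed intensity of 24 measured airway epithelium markers (25 listed) was 30457 to 41948 in COMB arrays, 19905 to 22876 in LPS arrays, 23953 to 24224 in HPO arrays and 10252 to 14048 in CTL arrays, and 20 of the 24 were higher in COMB. The 13 measured alveolar epithelium markers (14 listed) summed to 3761 to 5077 in COMB and 1902 to 2826 in CTL, and 8 were higher. The 28 measured T and NK cell markers (31 listed) summed to 3230 in COMB-a and to 18258 and 13983 in the other COMB pools, against 1293, 5749 and 2723 in CTL. The 10 measured neutrophil markers (18 listed) summed to 6995 to 11809 in COMB and to 1201 to 3565 in CTL, with 4 higher and 2 lower. Those higher were Lcn2, which is also an acute phase gene of other cells, S100a8, S100a9 and Mmp9, and those lower were Camp, a granule peptide (-0.92 on the log2 scale), and Cxcr1, a chemokine receptor (-0.69). The Cxcr1 call was lost without CTL-a, CTL-c or COMB-c (highest adjusted p = 0.0766) and that of S100a9 without CTL-a, CTL-c or COMB-b (highest adjusted p = 0.0962). No measured marker of these lists was at or below the 20th percentile in all COMB or in all CTL arrays. CTL-b stood apart from the other CTL pools in T cell, neutrophil and MHC class II genes. S100a9, a neutrophil calcium-binding protein, had intensities of 3326, 4403 and 1819.8 in COMB, against 20.6, 2011 and 60.2 in CTL. What part these cell types had in the results was not tested. In RNA from whole lavage samples, fewer cells of a type and less RNA per cell cannot be told apart. Values that rest on single pools are given with and without them. In lists with 5 or fewer calls, leaving out a single array often moved the count by more than 1.5 times, so those counts are only descriptive.

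**Figure D1:**
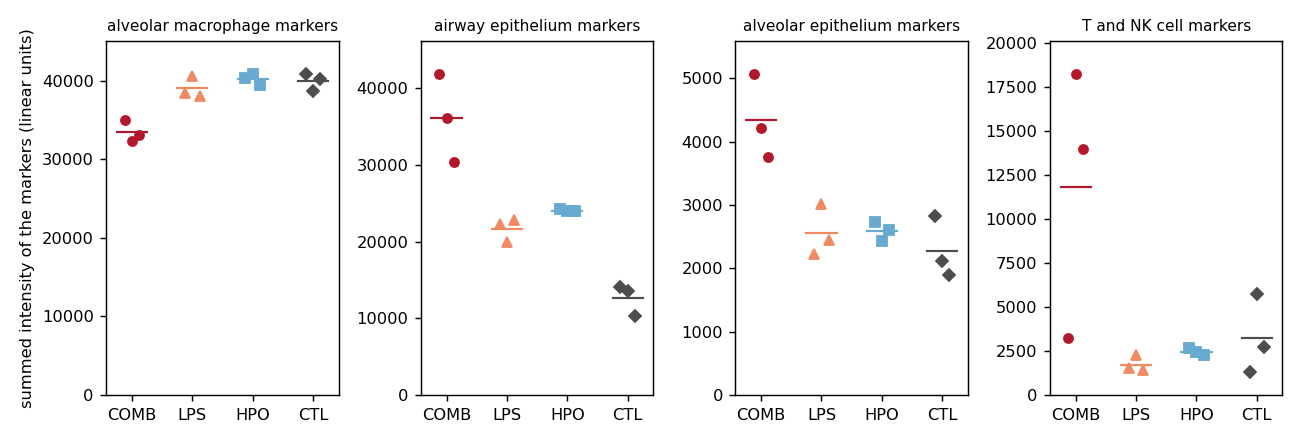
Summed intensity (linear units) of the measured markers of 4 cell types in each of the 12 arrays, COMB, LPS, HPO and CTL from left to right. Points are arrays (pools) and horizontal lines are group means. The macrophage sum of every COMB array lay below every other array, the epithelial sums of every COMB array lay above, and the T and NK cell sums differed most among the COMB pools.

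On the scale as deposited, COMB differed from CTL in as many genes downward as upward, but the 2 directions had different sizes. Of the 25692 probe sets tested, 2270 were higher (8.84%) and 2625 lower (10.2%) in COMB. Taking 1 probe set per gene, 1416 of 12853 genes were higher (11%) and 1409 lower (11%). The counts of called genes in each list below are to be read against these shares. The balance moved with the scaling. With arrays centred on their median 1223 genes were higher and 1698 lower, and with quantile normalization 1548 were higher and 1810 lower. The genes that fell did so by small amounts, with a median log2 difference of -0.56, against 0.89 for the genes that rose and -0.03 for all genes. Only 165 of the lower genes were lower by 2-fold or more, 24 by 3-fold or more and none by 8-fold, while 613 genes were higher by at least 2-fold, 351 by 3-fold and 49 by 8-fold. The genes that fell also had higher CTL signals. Their median CTL intensity was 331, against 62.6 for the genes that rose and 109 for all genes. The CTL values are part of the comparison that called these genes. This difference in level is thus favoured by the choice and is only a description. All 3 COMB values lay below all 3 CTL values in 1397 of the 1409 lower genes. The call on the same arrays favours such a separation, so this count is only a description. Without CTL-c the count of lower genes was 868, and without CTL-a it was 875. For higher genes the count was 963 without CTL-c.

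**Figure D2:**
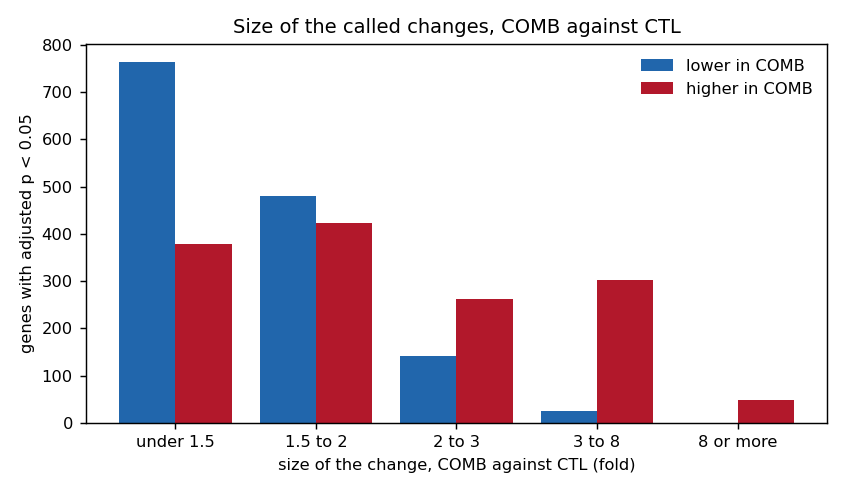
Number of genes (y axis) called lower (blue) or higher (red) in COMB than in CTL at an adjusted p under 0.05, by the size of the change (x axis, fold). Lower genes outnumbered higher ones in the bins under 1.5-fold (764 and 379) and 1.5 to 2-fold (480 and 424), and no lower gene reached 8-fold.

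The lowest of all was Cidec, which encodes a lipid droplet protein that lets droplets fuse and grow. Its intensities were 102, 66.9 and 57.8 in COMB, against 216 ± 31.1 in LPS, 273 ± 65.4 in HPO, and 414, 349 and 435 in CTL. The COMB pools did not overlap with any other group, and the difference from CTL was -2.42 on the log2 scale (SE 0.21, adjusted p = 3.77e-05), or 5.36-fold lower. The second was Star, which carries cholesterol into mitochondria, with 84.2, 113 and 37.8 in COMB, against 102 ± 14.5 in LPS, 292 ± 53.8 in HPO, and 405, 293 and 375 in CTL. Here the COMB and LPS values overlapped, and COMB was 4.91-fold below CTL (adjusted p = 0.00046). Nim1k, a kinase of the AMPK-related family, followed with 15.3, 29.9 and 10.9 in COMB, against 97.7, 59 and 92.3 in CTL, a difference of -2.17 on the log2 scale (SE 0.32, adjusted p = 0.000664). Its signal was above the 20th percentile in 2 of the 3 COMB arrays only. Rab40b, a small GTPase that recruits a ubiquitin ligase, was above that level in 1 COMB array only and had intensities of 8.67, 16 and 8.6 in COMB, against 52, 44.5 and 54.2 in CTL. Paqr5, a membrane progesterone receptor, had 83, 55.3 and 46.8 in COMB, against 291, 231 and 229 in CTL, and Csgalnact1, which starts chondroitin sulfate chains, had 38.7, 29.6 and 18.4 in COMB, against 115, 102 and 126 in CTL. All 3 pools of COMB were below those of CTL in each of these genes.

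**Figure D3:**
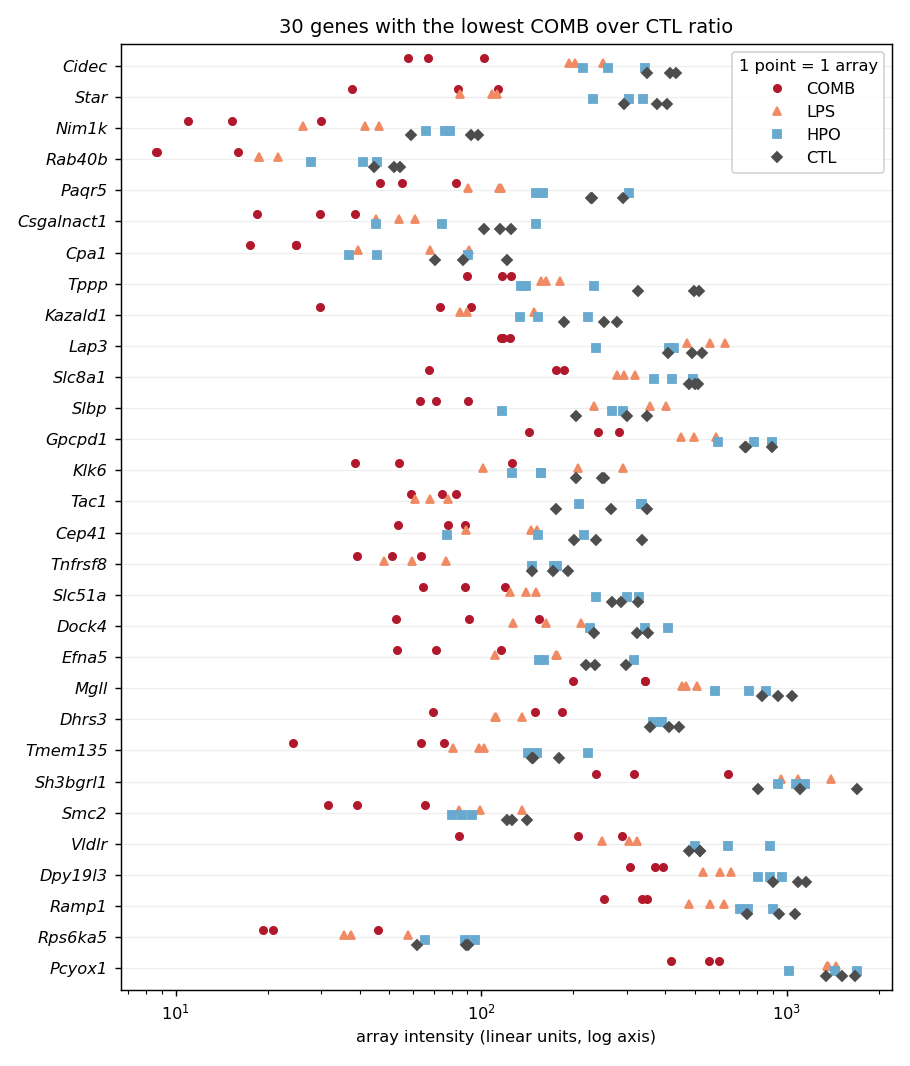
Array intensity (linear units on a log axis) of the 30 genes with the lowest COMB over CTL ratio among those past the test, at least 2-fold lower and without overlap, lowest at the top. Each point is 1 array (pool), with COMB, LPS, HPO and CTL as circles, triangles, squares and diamonds. COMB arrays lie left of the CTL arrays in every row, and the LPS arrays lie between them or with COMB in most rows.

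The 30 lowest genes by the rule of at least 2-fold, no overlap and an adjusted p under 0.05 included further lipid genes. Mgll, the lipase that splits monoacylglycerol, had 343, 344 and 199 in COMB, against 1038, 830.2 and 939 in CTL, a difference of -1.70 on the log2 scale (SE 0.20, adjusted p = 0.000188). Vldlr, a lipoprotein receptor, had 289, 207 and 84.6 in COMB, against 522, 479 and 522 in CTL, and Gpcpd1, which splits glycerophosphocholine, had 241, 283 and 144 in COMB, against 728, 737 and 897 in CTL. In all 3 genes COMB-c was the lowest. That pool was the lowest COMB array in 25 of the 30 genes, against 2 for COMB-a and 3 for COMB-b. Each of the 30 passed the test also when any single COMB or CTL array was left out, and the highest adjusted p among them was then 0.0328, for Vldlr. The genes were chosen by the same test on these arrays, which favours this result. Of the 30, 27 were also lower in COMB than in HPO and 15 lower than in LPS, where the shares of all genes were 9.36% and 5.04%. Since these genes were chosen for low COMB values and the comparisons use the same COMB arrays, such counts are favoured by the choice and are only a description. Higher calls against these groups made up 9.18% of all genes against HPO and 8.64% against LPS, and none of the 30 was among them.

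Receptors and secreted proteins formed another group among the 30. Ramp1, which turns the calcitonin receptor-like receptor into a CGRP receptor, had 337, 348 and 253 in COMB, against 1066, 742 and 941 in CTL, a difference of -1.55 on the log2 scale (SE 0.17, adjusted p = 0.000112). Tnfrsf8, which encodes CD30, had 51.2, 63.5 and 39.4 in COMB, against 192, 147 and 171 in CTL. Tac1, the precursor of substance P, had 82.6, 74.5 and 58.9 in COMB, against 68.9 ± 8.71 in LPS, 293 ± 72.4 in HPO, and 349, 176 and 266 in CTL. COMB did not differ detectably from LPS in Tac1 (difference 0.06 on the log2 scale, adjusted p = 0.905) and was lower than HPO (-1.99 on the log2 scale, adjusted p = 0.000381). Dhrs3, a retinaldehyde reductase, had 184, 150.3 and 69.6 in COMB, against 119.7 ± 14 in LPS, 381 ± 15.2 in HPO, and 445, 357 and 411 in CTL, and here too COMB and LPS overlapped and COMB lay below HPO. For Tnfrsf8 the difference from LPS was -0.25 on the log2 scale, adjusted p = 0.419. Efna5, an ephrin ligand, had 116, 52.9 and 70.9 in COMB, against 298, 219.9 and 236 in CTL, and Klk6 and Cpa1, a serine protease and a carboxypeptidase, were 3.61-fold and 3.99-fold lower.

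Other genes of the 30 were lower in COMB than in LPS as well. Lap3, a leucine aminopeptidase, had 118, 125 and 116 in COMB, against 554 ± 79.1 in LPS, 359 ± 105 in HPO, and 408, 491 and 529 in CTL. The COMB values lay within 116 to 125 and far below every other array, and COMB differed from LPS by -2.20 on the log2 scale, adjusted p = 0.000238. Slbp, which binds the stem-loop of histone mRNA, had 71.2, 90.3 and 63.1 in COMB, against 332 ± 87.4 in LPS, 226 ± 95.2 in HPO, and 204, 299 and 349.6 in CTL, with a difference from LPS of -2.11 on the log2 scale, adjusted p = 0.00249. Pcyox1, which breaks down prenylated cysteine in lysosomes, had 600.4, 558 and 417 in COMB, against 1389.8 ± 53.6 in LPS, 1388 ± 345 in HPO, and 1343, 1517 and 1678 in CTL, and here the difference from LPS was -1.42 on the log2 scale, adjusted p = 0.00104. Smc2, a condensin subunit, had 31.5, 65.6 and 39.3 in COMB, against 126, 121 and 142 in CTL, and was also lower than in LPS (-1.25 on the log2 scale, adjusted p = 0.00544). In these 4 genes all 3 COMB pools lay below all 3 LPS pools.

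The remaining genes of the 30 had varied roles. Slc8a1, the sodium-calcium exchanger, had 187, 175 and 67.7 in COMB, against 502, 514 and 479.8 in CTL, and Slc51a, a subunit of a bile acid and steroid transporter, had 88.6, 119.6 and 64.7 in COMB, against 325, 269 and 287 in CTL. Dpy19l3, a C-mannosyltransferase, had the smallest standard error of the group, with 394, 369.9 and 307 in COMB, against 1157, 899 and 1089 in CTL and a difference of -1.55 on the log2 scale (SE 0.13, adjusted p = 3.14e-05). The cytoskeletal genes Tppp, which promotes tubulin polymerisation, and Cep41, a centrosomal protein, were 3.97-fold and 3.48-fold lower, and Dock4, an activator of Rac, was 3.27-fold lower. Rps6ka5, the kinase MSK1, had 20.9, 46.1 and 19.3 in COMB, against 61.6, 90.9 and 89.3 in CTL. Kazald1, a secreted protein that binds insulin-like growth factors, was 3.96-fold lower. Tmem135, a peroxisomal and mitochondrial membrane protein, was 3.17-fold lower. Sh3bgrl1, a small SH3-domain-related protein, had 643, 238 and 316 in COMB, against 806, 1103 and 1697 in CTL, and its COMB pool of COMB-a came closest to the CTL values.

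Promoter sequence was looked up to show what stands before a few of these starts. RefSeq, build GRCr8, gave a promoter of 300 bases (250 before the start and 50 after it) for 10599 of the 12853 genes. The AP-1 site TGACTCA, bound by dimers of the AP-1 family, was searched on both strands. It stood in 3.3% of the promoters of lower genes, 5.64% of those of higher genes and 3.79% of all. The NF-kB site GGGNTTTCC stood in 1.52%, 2.73% and 1.9% in the same order. Of the 30 lowest genes 27 had a promoter, and 4 of these held TGACTCA on either strand. The windows below are shown because they hold the match in 3 of those genes, in 2 of the 15 highest genes and in the metallothionein gene Mt2A, which has 2 matches to the metal response element TGCACAC (3.78% of all promoters). Mt2A also holds TGACTCA and CACGTG, which were left in lower case. The capitals mark the matches, written as the reverse complement where they lie on the other strand, and are descriptions of letters and not of bound sites. The windows are those of Cidec at chr4:148137177-148137276, minus strand, Nim1k at chr2:53451370-53451469, minus strand, Tnfrsf8 at chr5:162451702-162451801, minus strand, Ccl20 at chr9:91837018-91837117, plus strand, Ubd at chr20:1392687-1392786, minus strand and Mt2A at chr19:10838799-10838958, minus strand.
Cidec: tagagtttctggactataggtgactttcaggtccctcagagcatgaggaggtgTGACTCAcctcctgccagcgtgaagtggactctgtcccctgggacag
Nim1k: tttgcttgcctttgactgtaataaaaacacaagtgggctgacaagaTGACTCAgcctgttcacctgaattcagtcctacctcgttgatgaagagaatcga
Tnfrsf8: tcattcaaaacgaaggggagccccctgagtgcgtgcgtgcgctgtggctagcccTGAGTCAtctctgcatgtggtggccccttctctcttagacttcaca
Ccl20: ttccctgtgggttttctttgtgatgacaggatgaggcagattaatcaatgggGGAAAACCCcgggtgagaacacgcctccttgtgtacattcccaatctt
Ubd: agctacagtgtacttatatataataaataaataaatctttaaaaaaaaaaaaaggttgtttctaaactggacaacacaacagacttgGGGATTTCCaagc
Mt2A: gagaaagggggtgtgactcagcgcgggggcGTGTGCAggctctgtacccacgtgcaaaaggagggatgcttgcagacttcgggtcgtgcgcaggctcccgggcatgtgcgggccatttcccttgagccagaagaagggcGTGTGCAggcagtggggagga

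Genes that mark alveolar macrophages were lower in part, and some of them, such as Cidec, are lipid genes as well. Of 15 measured markers (21 listed), 7 were lower and 1 higher in COMB, and the median log2 difference was -0.39. Their summed intensity was 32325 to 35004 in COMB arrays, 38087 to 40603 in LPS arrays, 39539 to 40952 in HPO arrays and 38685 to 40890 in CTL arrays. Pparg itself had 296, 285 and 229.6 in COMB, against 437 ± 35.7 in LPS, 606 ± 34.9 in HPO, and 819, 651 and 772 in CTL, and the COMB pools lay below all others. The difference from CTL was -1.47 on the log2 scale (SE 0.12, adjusted p = 2.98e-05), and COMB was also below LPS (-0.70 on the log2 scale, adjusted p = 0.00455) and below HPO (-1.17 on the log2 scale, adjusted p = 0.000188). Olr1, a receptor for oxidised lipoprotein, had 454, 432 and 296 in COMB, against 877, 889.8 and 912 in CTL. The exception was Car4, a carbonic anhydrase, with 64.9, 744 and 309 in COMB, against 15.1, 72.3 and 16.4 in CTL, groups that overlapped. It was highest in COMB-b, which also had the highest T and NK cell sum. The Car4 call was lost with COMB and CTL arrays only (adjusted p = 0.0695). Mrc1, Cd68 and 5 other markers did not pass the test.

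Of 38 genes of lipid droplets and fatty acid handling, 10 fell (26.3%) and 4 rose (10.5%), against 11% of all genes each way, with a median of -0.16. Besides Cidec, Mgll and Vldlr, further lower members, named after their values were seen, were Gpd1, Lpl and Fabp3. Gpd1 makes glycerol phosphate for triglyceride synthesis and had 1084, 615 and 512 in COMB, against 1508, 1377 and 1554 in CTL. Lpl, the lipoprotein lipase, had 4094, 4111 and 3205 in COMB, against 5964, 5219 and 5740.2 in CTL, a difference of -0.58 on the log2 scale (SE 0.11, adjusted p = 0.00416). Fabp3, a fatty acid carrier, was lower by 1.7-fold, and this call was lost without CTL-a (adjusted p = 0.0516). The 4 members that rose were led by Hilpda, a droplet protein induced by low oxygen that inhibits fat breakdown. Its intensities were 574, 557 and 873 in COMB, against 399 ± 25.7 in LPS, 338 ± 75.2 in HPO, and 284, 342 and 249 in CTL, and COMB was 2.25-fold higher than CTL (adjusted p = 0.00167). Dgat2, which makes triglyceride, had 2136, 2324 and 2592 in COMB, against 1501, 1634 and 1478 in CTL, and Plin5, a droplet coat protein of low signal, had 18.9, 21 and 18.5 in COMB, against 11.4, 10.5 and 10.6 in CTL. The list thus split, with lipases and uptake genes among those that fell and Hilpda, Dgat2 and Plin5 among those that rose.

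Genes of cholesterol export and intracellular transport moved mostly downward, with 9 of 23 lower, 3 higher and a median of -0.22. Soat1, which esterifies cholesterol for storage, had 474, 482 and 494 in COMB, against 687 ± 68.1 in LPS, 873 ± 37.7 in HPO, and 949, 1047 and 985 in CTL. COMB lay below every other group, and the difference from CTL was -1.04 on the log2 scale (SE 0.09, adjusted p = 4.16e-05). Nceh1, which releases cholesterol from its esters, had 955, 1079.7 and 549.7 in COMB, against 1769, 1627 and 1755 in CTL, and Star was the lowest of the list. Among members named after their values were seen, Nr1h3, which encodes the sterol sensor LXRα, had 316, 235 and 193 in COMB, against 467, 394 and 439 in CTL, a difference of -0.83 on the log2 scale (SE 0.17, adjusted p = 0.00589). Its transcriptional targets Abca1 and Mylip were lower by 1.77-fold and 1.79-fold. The Abca1 call was lost without CTL-a, COMB-b or COMB-c (highest adjusted p = 0.0877). The members that rose were enzymes that oxidise cholesterol and a mitochondrial protein. Ch25h, which makes 25-hydroxycholesterol, had 3951, 3081 and 4092 in COMB, against 1946 ± 380.4 in LPS, 1294 ± 178 in HPO, and 1049.6, 863 and 896 in CTL. The 3 COMB values lay above all others, and COMB was 3.94-fold above CTL (adjusted p = 2.71e-05) and above LPS by 0.94 on the log2 scale, adjusted p = 0.00425. Cyp27a1, which makes 27-hydroxycholesterol, was 2.52-fold higher (adjusted p = 0.000261), and Tspo, a protein of the outer mitochondrial membrane, 1.57-fold (adjusted p = 0.00728).

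Cholesterol synthesis stood apart from export, since 6 of 21 genes of synthesis and uptake rose and none fell, with a median of 0.14. The number that rose was 2 without CTL-c and 3 without CTL-b, COMB-a or COMB-b, and without CTL-a it was 4. Lss, the lanosterol synthase, had 223, 369 and 389 in COMB, against 201 ± 2.37 in LPS, 248 ± 14 in HPO, and 161, 167 and 188 in CTL. Idi1, an isomerase of the same pathway that was named after its values were seen, had 593, 692 and 565 in COMB, against 525 ± 41.5 in LPS, 593 ± 81.8 in HPO, and 439, 383 and 403 in CTL. In Lss COMB-a lay within the HPO range, and for Idi1 COMB and HPO did not differ detectably (difference 0.06 on the log2 scale, adjusted p = 0.802). Sqle and Fdps were higher by 1.58-fold and 1.55-fold. The call of Fdps was lost without CTL-c (adjusted p = 0.0515), and that of Sqle without CTL-b, CTL-c, COMB-a or COMB-b (highest adjusted p = 0.0931). The list median against CTL was 0.30 in HPO and -0.03 in LPS.

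Lysosomal genes fell in a large share of cases, by small amounts. Of 42 (49 listed) measured hydrolases and membrane proteins, 17 were lower (40.5%) and 1 higher, and 36 of the 42 log2 differences were below 0, with a median of -0.24. Manba, which splits mannose from glycoprotein, had 215, 292 and 205 in COMB, against 528, 479.7 and 563 in CTL, a difference of -1.15 on the log2 scale (SE 0.13, adjusted p = 0.000143). Asah1, the acid ceramidase, had 897, 979 and 855 in COMB, against 1542, 1914 and 2041 in CTL, 2-fold lower (adjusted p = 0.000411). Lipa, the acid lipase that frees cholesterol and fatty acids from engulfed lipid, had 1859, 2005 and 1498 in COMB, against 2906, 2702 and 3117 in CTL. In these 3 genes the COMB pools lay below the CTL pools. Further lower members, named after their values were seen, were Ctsh (-0.68), Gusb (-0.65), Neu1 (-0.65) and Psap (-0.44) on the log2 scale, a cathepsin, a glucuronidase, a sialidase and the precursor of the saposins. The exception was Lgmn, an asparagine-specific protease, with 2411, 2943 and 2858 in COMB, against 1939, 1875 and 2070.4 in CTL. Its call was lost without any CTL array and without COMB-b or COMB-c (highest adjusted p = 0.125). The count of lower lysosomal genes fell to 10 without COMB-c, without CTL-a or without CTL-c, and was 13 to 15 without any other array. Of the 42, 12 were lower than in HPO and 7 lower than in LPS, where the shares of all genes were 9.36% and 5.04%.

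The proton pump of the lysosome did not follow. Of 22 vacuolar ATPase subunits 3 rose and 2 fell, and the median was 0.02. Atp6ap1, an accessory subunit, had 1055, 955 and 819.6 in COMB, against 1581, 1587 and 1523 in CTL, a difference of -0.74 on the log2 scale (SE 0.12, adjusted p = 0.00156), while Atp6v0c, a part of the membrane ring, had 3072, 4088 and 4252 in COMB, against 2594, 2421 and 2258 in CTL, a difference of 0.64 on the log2 scale (SE 0.12, adjusted p = 0.00337). The subunit with the largest change was Atp6v1c2, with 351, 206 and 117 in COMB, against 53.8, 59.7 and 50.4 in CTL, and its highest COMB value was in the pool with the highest airway epithelium sum. Of 31 autophagy genes 4 fell (12.9%) and 1 rose (3.23%). Wipi1, which marks early autophagosomes, had 155, 131 and 134 in COMB, against 257, 193 and 199 in CTL, a difference of -0.62 on the log2 scale (SE 0.14, adjusted p = 0.00821).

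Mitochondrial fatty acid oxidation had a uniform direction, with 13 of 32 genes lower (40.6%), none higher and 30 log2 differences below 0. The median was -0.27. Etfb, which passes electrons from the acyl-CoA dehydrogenases to the respiratory chain, had 1288, 1360.0 and 1189.5 in COMB, against 1476 ± 170.3 in LPS, 1981 ± 219 in HPO, and 2554, 1736 and 2116 in CTL. Ppargc1b, a coactivator of mitochondrial genes, had 69.9, 45.1 and 62 in COMB, against 92.1 ± 6.65 in LPS, 96.1 ± 6.91 in HPO, and 99.9, 99.4 and 92.4 in CTL, and its difference from LPS was -0.65 on the log2 scale, adjusted p = 0.0113. The other lower members, named after their values were seen, covered successive steps. Cpt2, which completes the import of acyl groups, was lower by 1.59-fold and Acads, which oxidises short chains, by 1.54-fold. Hadh and Hadhb, which carry out later steps of the cycle, were lower by 1.6-fold and 1.47-fold. Decr1 and Eci2, which handle unsaturated fatty acids, were lower by 1.62-fold and 1.59-fold. The most even of these was Eci2, with 428, 406 and 391 in COMB, against 432 ± 15 in LPS, 707 ± 45.2 in HPO, and 714, 613 and 626 in CTL, where COMB and LPS overlapped and COMB and CTL did not. The calls of Cpt2 and Acads were lost without CTL-a or COMB-c (highest adjusted p = 0.066 and 0.0582). Without any single array 9 to 14 members were lower. The list median against CTL was -0.24 in LPS and 0.05 in HPO, and 13 members were lower in COMB than in HPO and 2 lower than in LPS.

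Several lower genes of other lists act in the breakdown of branched-chain amino acids and propionate. They were brought together after their values were seen, from no list of that pathway, and no share is given. Other genes of the pathway are not shown, so these genes do not stand for all of it. Dbt, a core subunit of the branched-chain ketoacid dehydrogenase, had 674, 617 and 843 in COMB, against 1385 ± 115 in LPS, 1422 ± 142 in HPO, and 1252, 1339 and 1452 in CTL. COMB lay below all other groups, and the difference from LPS was -0.97 on the log2 scale, adjusted p = 0.00115. Aldh6a1, which works further down the valine pathway, had 126, 126 and 85.6 in COMB, against 265, 245 and 254 in CTL, a difference of -1.19 on the log2 scale (SE 0.16, adjusted p = 0.000381). Mmut, the mutase that sends propionate carbon into the tricarboxylic acid cycle, had 121, 137 and 85.5 in COMB, against 203 ± 27.1 in LPS, 174 ± 10.2 in HPO, and 207, 193 and 224 in CTL, a difference from CTL of -0.88 on the log2 scale (SE 0.16, adjusted p = 0.00238). Pcca and Mcee, the steps before Mmut, were named after their values were seen and were lower by 1.62-fold and 1.43-fold. The Mcee call was lost without CTL-a, CTL-c, COMB-a or COMB-c (highest adjusted p = 0.134). Bckdhb, another dehydrogenase subunit, had 539, 397 and 318 in COMB, against 759, 685 and 671 in CTL, and its call was lost without CTL-a or COMB-c (highest adjusted p = 0.0696). In contrast, Bcat1, the cytosolic enzyme that takes the amino group off these amino acids, had 866, 655 and 1222 in COMB, against 707 ± 115 in LPS, 177 ± 64.5 in HPO, and 235, 300.1 and 257 in CTL. COMB was 3.36-fold above CTL (adjusted p = 0.000906), and COMB and LPS overlapped.

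Peroxisomal genes fell in 8 of 34 cases, with 1 higher and a median of -0.16. Abcd2, which imports very long fatty acyl-CoA, had 165, 241 and 162 in COMB, against 368 ± 57.9 in LPS, 457 ± 72 in HPO, and 486, 422 and 490.0 in CTL, a difference of -1.32 on the log2 scale (SE 0.17, adjusted p = 0.000344). Cat, the catalase, had 1299.7, 1286 and 921 in COMB, against 2092, 2412 and 2223 in CTL, a difference of -0.95 on the log2 scale (SE 0.13, adjusted p = 0.00049). Agps, which makes ether lipids, had 41.3, 40.1 and 39.1 in COMB, against 79, 70.2 and 78.6 in CTL. These 3 genes had no overlap between COMB and CTL. Amacr and Ech1, named after their values were seen, were lower by 1.71-fold and 1.59-fold. The exception was Pecr, a peroxisomal trans-enoyl-CoA reductase, with 595, 713 and 471 in COMB, against 265 ± 41.9 in LPS, 294 ± 28.4 in HPO, and 294, 207 and 239 in CTL, where COMB lay above every other group. Without COMB-a, 13 peroxisomal genes were lower, and 6 to 8 without any other array.

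The respiratory chain did not move with fat oxidation. Of 77 subunits of the chain and ATP synthase only 3 fell and 1 rose, shares of 3.9% and 1.3%, and the median was -0.04. Sdhd, an anchor of complex II, had 1595, 1692 and 1563 in COMB, against 2434, 2079.9 and 2214 in CTL and was lower by 1.39-fold, a difference of -0.47 on the log2 scale (SE 0.09, adjusted p = 0.00344). Of 73 mitochondrial ribosomal proteins 4 rose and 1 fell, and the median was 0.08. Mrps6 was the exception in size, with 1815, 1299 and 1429.7 in COMB, against 1125 ± 132 in LPS, 485 ± 113 in HPO, and 521, 600.4 and 482 in CTL, or 2.81-fold above CTL (adjusted p = 0.000162). Of 27 genes of the tricarboxylic acid cycle and pyruvate dehydrogenase 6 fell and 1 rose. Aco1, the cytosolic aconitase that also controls iron genes, had 377, 342 and 290.4 in COMB, against 612, 602 and 616 in CTL, and Me2, a mitochondrial malic enzyme, had 285, 289 and 230.1 in COMB, against 497, 461 and 425 in CTL. Suclg2, a succinyl-CoA ligase subunit named after its values were seen, was 1.41-fold lower. The count of lower genes in this list was 3 without COMB-c, CTL-a or CTL-c, and 5 or 6 otherwise. Of 38 mitochondrial carriers 4 rose and 4 fell (10.5% each way), close to the shares of all genes. Slc25a20, which brings acylcarnitine into the matrix, had 360.2, 297 and 254 in COMB, against 478, 432 and 459 in CTL, while Slc25a33, a pyrimidine nucleotide carrier, had 63, 47.2 and 57.2 in COMB, against 31.4, 34.3 and 31.7 in CTL.

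**Figure D4:**
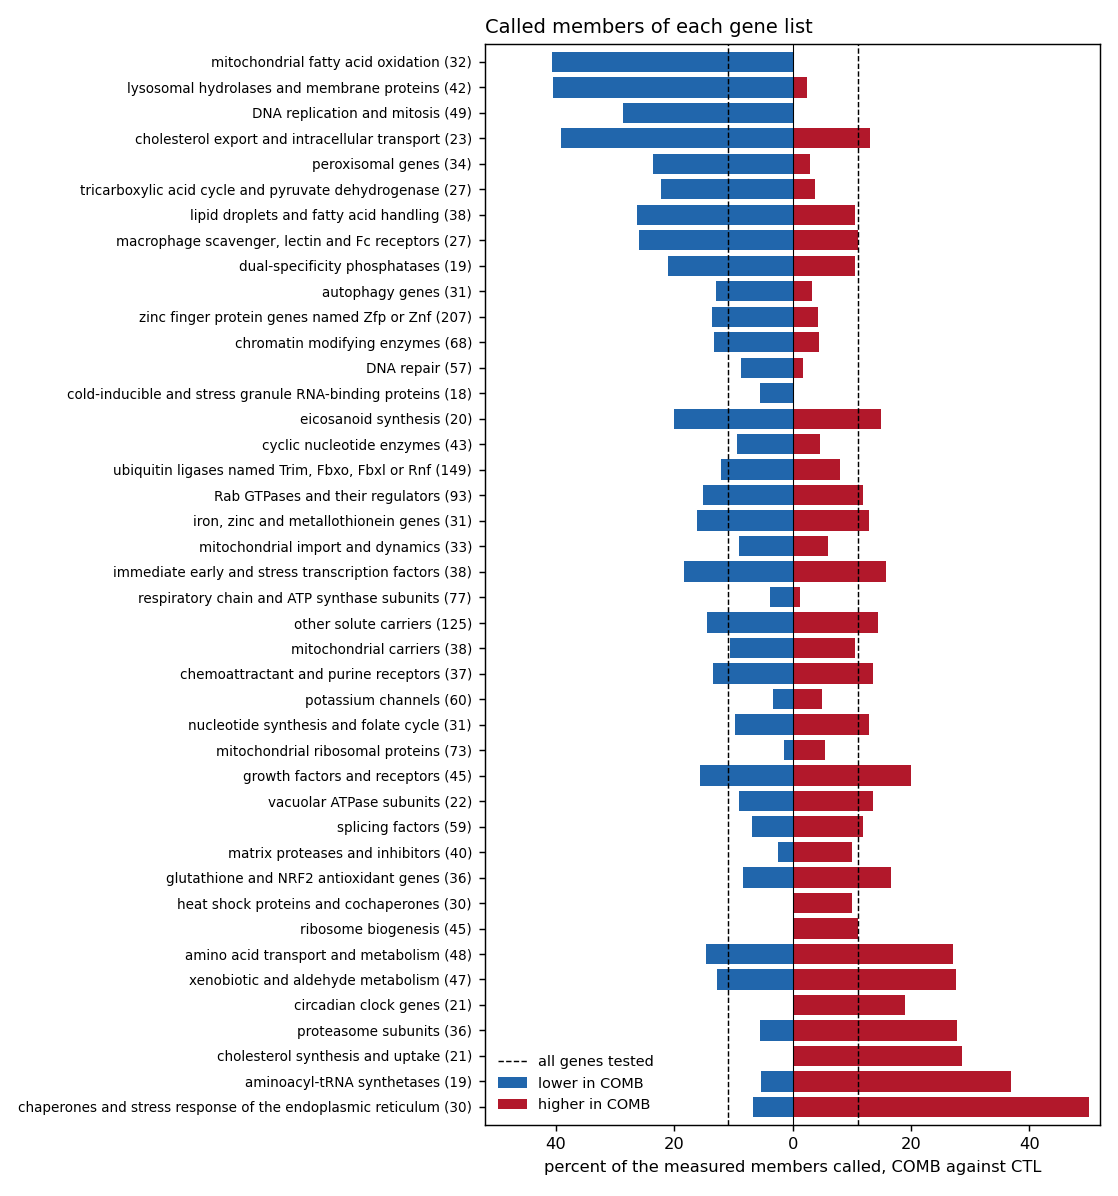
Percent of the measured members of functional gene lists with at least 15 measured members (number measured in parentheses) called lower (blue, to the left) or higher (red, to the right) in COMB than in CTL. Dashed lines mark the shares over all genes tested (11% each way). Fatty acid oxidation (13 of 32) and lysosomal genes (17 of 42) have long bars to the left, endoplasmic reticulum chaperones (15 of 30 higher) a long bar to the right, and the respiratory chain lies below the dashed lines on both sides.

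Of 20 measured eicosanoid genes 4 fell (20%) and 3 rose (15%), against 11% of all genes each way. Alox5, the 5-lipoxygenase that starts leukotriene synthesis, had 474, 485 and 383 in COMB, against 877 ± 79.3 in LPS, 952 ± 125 in HPO, and 1219, 884 and 1136 in CTL. COMB lay below all other groups, and the difference from CTL was -1.26 on the log2 scale (SE 0.15, adjusted p = 0.00017). Lta4h, which makes leukotriene B4 and was named after its values were seen, had 4499, 4486 and 3924 in COMB, against 6798, 6519.9 and 6855 in CTL, a difference of -0.65 on the log2 scale (SE 0.08, adjusted p = 0.000344). Cysltr1, a receptor for cysteinyl leukotrienes with a signal above the 20th percentile in 1 COMB array only, had 11.5, 10.6 and 10.8 in COMB, against 23.2, 16.2 and 18.9 in CTL. Among prostaglandin genes, Hpgds, the prostaglandin D synthase of blood cells, had 318, 454 and 111 in COMB, against 38.1 ± 1.37 in LPS, 35.3 ± 3.89 in HPO, and 24.4, 33.6 and 34.4 in CTL. All COMB pools were above 100 and all other arrays lay far below, and COMB was 8.05-fold above CTL (adjusted p = 0.000261) and above LPS by 2.70 on the log2 scale, adjusted p = 0.00151. Pla2g2a, a secreted phospholipase, had 372, 101 and 159 in COMB, against 18.7, 23.7 and 23.2 in CTL and Ptges, a prostaglandin E synthase, 54.3, 45.6 and 42.4 in COMB, against 32.3, 37.2 and 35.1 in CTL. The Ptges call was lost without CTL-a (adjusted p = 0.0672). Ptgs1, the constitutive cyclooxygenase, had 176, 440.2 and 207 in COMB, against 537, 437 and 491 in CTL, groups that overlapped, and its call was lost without CTL-a, CTL-c, COMB-a or COMB-c (highest adjusted p = 0.0938).

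Receptors of the macrophage surface fell in part. Of 27 scavenger, lectin and Fc receptors measured (41 listed), 7 fell (25.9%) and 3 rose (11.1%), against 11% of all genes each way. Cd36, which takes up oxidised lipid, had 351, 428 and 414 in COMB, against 701 ± 57.2 in LPS, 729.6 ± 63.4 in HPO, and 802, 594 and 733 in CTL, and COMB lay below all other groups. Fcgr1a, the high-affinity IgG receptor, had 383, 493 and 291 in COMB, against 391 ± 34.4 in LPS, 467 ± 45.4 in HPO, and 674, 849.9 and 643 in CTL, and here COMB and LPS overlapped. Axl, which binds dying cells, and Clec7a, which binds β-glucan, were named after their values were seen, with log2 differences of -0.78 and -0.48. The members that rose were Clec10a, Itgam and Fcgr2b. Clec10a, a galactose lectin, had 982, 549 and 2792 in COMB, against 762 ± 14 in LPS, 51.4 ± 14.5 in HPO, and 22.8, 45 and 26.8 in CTL, with COMB 36.8-fold above CTL (adjusted p = 3.77e-05). The 3 COMB pools differed widely in Clec10a, and COMB did not differ detectably from LPS (0.59 on the log2 scale, adjusted p = 0.433). The Fcgr2b call was lost without CTL-a (adjusted p = 0.0558). Cd1d1, which presents lipid to T cells, had 128, 147 and 98 in COMB, against 143 ± 18.9 in LPS, 313 ± 51.4 in HPO, and 328, 287 and 303 in CTL, a difference of -1.31 on the log2 scale (SE 0.16, adjusted p = 0.000252).

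Growth factor genes were called in both directions, 9 higher (20%) and 7 lower (15.6%) of 45, against 11% of all genes each way. The number of higher genes was 3 without CTL-a and 5 without COMB-a. Hgf, the hepatocyte growth factor, had 36.2, 40.4 and 33.7 in COMB, against 43.5 ± 6.82 in LPS, 95.9 ± 24.3 in HPO, and 121, 78.8 and 88.5 in CTL. COMB and HPO did not overlap, COMB and LPS did, and the difference from CTL was -1.34 on the log2 scale (SE 0.19, adjusted p = 0.000654). Acvrl1, a receptor of the TGF-β family, had 34.8, 28.2 and 25.7 in COMB, against 88.7, 58.4 and 74.3 in CTL, a difference of -1.28 on the log2 scale (SE 0.17, adjusted p = 0.000381). Csf1r, the receptor on which macrophage survival depends, had 507, 479.7 and 432 in COMB, against 583 ± 23.6 in LPS, 754 ± 116 in HPO, and 892, 792 and 669.5 in CTL, a difference of -0.72 on the log2 scale (SE 0.13, adjusted p = 0.0029). Igf1 and Bmpr2, named after their values were seen, differed by -0.55 and -0.71 on the log2 scale. Among those that rose, Pdgfa had 55.8, 34.6 and 34.7 in COMB, against 9.23, 25.2 and 13.2 in CTL. Igf1r, with 142, 65.2 and 48.1 in COMB, against 31.5, 35.3 and 37.2 in CTL, was highest in the pool with the highest epithelial sum, and its call was lost without CTL-a (adjusted p = 0.0643).

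Chemoattractant and purine receptors changed in 10 of 37 cases, 5 each way (13.5%), and the number of higher genes was 10 without COMB-a, 8 without CTL-b and 3 without COMB-b, CTL-a or CTL-c. The number of lower genes was 3 without COMB-b, COMB-c, CTL-a or CTL-c. P2ry10, a receptor for lysophosphatidylserine, had 141, 158 and 104 in COMB, against 212, 256 and 274 in CTL, a difference of -0.89 on the log2 scale (SE 0.15, adjusted p = 0.00153). P2ry12, an ADP receptor named after its values were seen, had 223, 172 and 244 in COMB, against 365, 320.0 and 336 in CTL. The largest rises were Ackr3, a scavenging chemokine receptor, and Adora2b, an adenosine receptor. Adora2b had 439, 187 and 168 in COMB, against 76.5 ± 19.2 in LPS, 50.8 ± 10.9 in HPO, and 39.2, 45.4 and 38 in CTL, and the 3 COMB values lay above all others. COMB was 5.77-fold above CTL (adjusted p = 0.000217), above LPS by 1.67 on the log2 scale, adjusted p = 0.00555 and above HPO by 2.24 on the log2 scale, adjusted p = 0.000679. Ackr3 had 234, 119 and 57.2 in COMB, against 24.4 ± 7.17 in LPS, 52.2 ± 9.07 in HPO, and 12.6, 19.3 and 20.3 in CTL. In Adora2b and Ackr3 the COMB pools had the same order as their airway epithelium sums, highest in COMB-a, and the part of these cells was not tested.

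Genes of DNA replication and mitosis were lower in COMB, with 14 of 49 called lower, none higher and 45 log2 differences below 0. The median was -0.46. Prc1, which bundles the spindle midzone, had 236, 481 and 303 in COMB, against 366 ± 58.8 in LPS, 478 ± 19.9 in HPO, and 830.5, 633 and 647 in CTL, a difference of -1.10 on the log2 scale (SE 0.22, adjusted p = 0.00401). Mki67 and Top2a, proliferation genes named after their values were seen, had 144, 401 and 227 in COMB, against 309.6 ± 54.5 in LPS, 247 ± 33 in HPO, and 508, 433 and 395 in CTL for Mki67 and 89.4, 196 and 148 in COMB, against 182 ± 45.1 in LPS, 139 ± 23.6 in HPO, and 281, 244 and 239 in CTL for Top2a. COMB-b lay near the CTL values in both, and its Mki67 value lay within the CTL range. The calls of Mki67 and Top2a were each lost without any CTL array or without COMB-a, and that of Mki67 also without COMB-c (highest adjusted p = 0.136 and 0.0943). The number of lower genes was 28 without COMB-b, 4 without CTL-a, 5 without CTL-c or COMB-a, and 8 without either remaining array. The fall was not particular to COMB. The list median against CTL was -0.39 in LPS and -0.44 in HPO, on the same CTL arrays, and COMB differed from LPS in 1 member and from HPO in 4. Of all genes, 8.64% were higher and 5.04% lower than in LPS, and 9.18% higher and 9.36% lower than in HPO.

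Nuclear genes outside the cell cycle shifted less. Of 57 DNA repair genes 5 fell (8.77%) and 1 rose (1.75%), with a median of -0.14. The number of lower repair genes was 8 without CTL-b, 1 or 2 without COMB-a or COMB-c or the other CTL pools, and 7 without COMB-b. Xrcc5, which encodes the Ku80 subunit that binds broken DNA ends, had 2028, 2415 and 1798 in COMB, against 2522 ± 156 in LPS, 3943 ± 159.6 in HPO, and 4253, 3634 and 4066 in CTL, a difference of -0.94 on the log2 scale (SE 0.11, adjusted p = 0.000217). Across the 22 alternatives, which include averaging all probe sets of a gene, the Xrcc5 difference from CTL ran from -1.06 to -0.39. COMB and LPS did not differ detectably in Xrcc5 (-0.29 on the log2 scale, adjusted p = 0.126). Of 68 chromatin enzymes 9 fell (13.2%) and 3 rose (4.41%). The histone deacetylases Hdac8, Hdac4 and Hdac6 were lower by 2.26-fold, 1.55-fold and 1.55-fold, and Hdac7 was 1.62-fold higher, with 40.7, 47.9 and 59.1 in COMB, against 28.7, 28.3 and 32.1 in CTL. The count of lower chromatin enzymes was 3 without COMB-c or CTL-c, and 6 without either of the other CTL pools. Of 207 genes named Zfp or Znf 28 fell (13.5%) and 9 rose (4.35%). Zfp24 and Zfp62 were the lowest, at 99.7, 78 and 58.1 in COMB, against 148, 169 and 171 in CTL for Zfp24 and 67.3, 57.9 and 70.3 in COMB, against 100.3, 124 and 162 in CTL for Zfp62. Without CTL-c 14 of the 207 were lower, and 17 without CTL-a. Without either of these pools 5 were higher. Zfp36l1, which binds AU-rich mRNA rather than DNA, rose, with 2052, 1872 and 1609 in COMB, against 797 ± 65.2 in LPS, 711 ± 71.7 in HPO, and 488, 628 and 689 in CTL, and COMB lay above every other group.

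Transcription factors with early responses were mixed, with 7 lower (18.4%) and 6 higher (15.8%) of 38, against 11% of all genes each way. The number of higher genes was 13 without CTL-b and 3 without CTL-c, COMB-b or COMB-c. The number of lower genes was 3 without CTL-c or COMB-b and 4 without CTL-a or COMB-a. Klf4 had 449, 371 and 379.6 in COMB, against 407 ± 90.7 in LPS, 607 ± 113 in HPO, and 784, 676 and 810.2 in CTL and Gadd45a, a stress-induced growth arrest gene, had 918, 1075 and 926 in COMB, against 821 ± 20.6 in LPS, 1353 ± 213 in HPO, and 1615, 1428 and 1449 in CTL. In both genes COMB lay below CTL. COMB and LPS overlapped in Klf4, while in Gadd45a COMB lay above LPS. Jun, named after its values were seen, had 764, 521 and 709 in COMB, against 359, 449.7 and 425 in CTL, a difference of 0.68 on the log2 scale (SE 0.15, adjusted p = 0.00885). Fmr1, an RNA-binding protein of stress granules, had 97, 87.7 and 82.3 in COMB, against 158 ± 19.9 in LPS, 142 ± 18 in HPO, and 141, 152 and 173 in CTL, and COMB lay below every other group. Hnrnpll, a splicing factor, had 129, 142 and 108 in COMB, against 211 ± 18 in LPS, 203 ± 7.16 in HPO, and 253, 253 and 282 in CTL, a difference of -1.06 on the log2 scale (SE 0.11, adjusted p = 9.78e-05), in a list of 59 splicing factors of which 4 fell (6.78%) and 7 rose (11.9%). Without CTL-c the number of splicing factors that rose was 3, and without CTL-b it was 4.

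Of 19 dual-specificity phosphatases, which switch off MAP kinases, 4 fell (21.1%) and 2 rose (10.5%). Dusp5 had 284, 213 and 198 in COMB, against 493, 401 and 502 in CTL and Dusp7 280.2, 328 and 243 in COMB, against 419, 454 and 429 in CTL, while Dusp14 had 178, 174 and 90.3 in COMB, against 49.1 ± 13.2 in LPS, 52.3 ± 9.66 in HPO, and 35.6, 46.9 and 37.5 in CTL, above every other group. Of 43 cyclic nucleotide enzymes 4 fell (9.3%) and 2 rose. Pde3b, a cAMP phosphodiesterase, had 138, 232 and 198 in COMB, against 411, 338 and 382 in CTL, and Rapgef5, an activator of Rap1, had 452, 306 and 224 in COMB, against 686, 699 and 857 in CTL, without overlap in either. Of 149 ubiquitin ligase genes of the Trim, Fbxo, Fbxl and Rnf families 18 fell (12.1%) and 12 rose (8.05%), near the shares of all genes. Trim36 had 54.1, 54.8 and 46.5 in COMB, against 117, 109 and 103 in CTL, a difference of -1.07 on the log2 scale (SE 0.10, adjusted p = 4.16e-05). The number of lower ligase genes was 9 without CTL-c, 10 without CTL-a and 11 without COMB-c.

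Among classes that rose were the chaperones of the endoplasmic reticulum, with 15 of 30 higher, 2 lower and a median of 0.29. These genes respond to unfolded protein in the secretory pathway. Creld2 had 734, 712 and 599 in COMB, against 720.3 ± 68.5 in LPS, 220.2 ± 32.4 in HPO, and 306, 321 and 301 in CTL, and COMB and LPS overlapped. Chac1, a target of the ATF4 branch, had 159, 152 and 126 in COMB, against 90.3 ± 8.57 in LPS, 83.5 ± 27.2 in HPO, and 56.6, 63.8 and 60.7 in CTL, and COMB lay above every other group, with a difference from LPS of 0.68 on the log2 scale, adjusted p = 0.0312. Hyou1 and Hspa5, chaperones named after their values were seen, differed by 1.04 and 0.72 on the log2 scale. Hspa5, the main chaperone of this compartment, had 1735, 1777 and 1847 in COMB, against 2974 ± 262 in LPS, 754 ± 77.9 in HPO, and 1003, 1173 and 1082 in CTL, and COMB lay below LPS and above CTL. Of the list, 16 genes were higher and 1 lower than in HPO, while 3 were higher and 8 lower than in LPS. Of all genes, 9.18% were higher and 9.36% lower than in HPO, and 8.64% higher and 5.04% lower than in LPS. The exceptions were Edem1, which directs misfolded protein to degradation, with 1124, 1139 and 962 in COMB, against 1491, 1542 and 1548 in CTL, and Xbp1, with 3286, 2855 and 3187 in COMB, against 3963, 3752 and 4048 in CTL. The Xbp1 call was lost without CTL-a, CTL-c or COMB-b (highest adjusted p = 0.0823).

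Heat shock proteins and their cochaperones differed between COMB and LPS more than between COMB and CTL in number. Against CTL 3 of 30 rose and none fell, with a median of -0.01, while 14 were lower and 2 higher in COMB than in LPS. Of all genes, 5.04% were lower and 8.64% higher than in LPS. The list median against CTL was 0.46 in LPS and -0.14 in HPO. Genes of the list named after their values were seen show the pattern. Hsph1, a cochaperone of HSP70, had 621, 645 and 654 in COMB, against 1802 ± 423 in LPS, 307 ± 48.6 in HPO, and 481, 521 and 520.1 in CTL. COMB lay between LPS and CTL, with a difference from LPS of -1.47 on the log2 scale, adjusted p = 0.000563 and from HPO of 1.07 on the log2 scale, adjusted p = 0.00101. Hspa1a, an inducible HSP70, had 178, 132 and 137 in COMB, against 671 ± 114 in LPS, 92.6 ± 17 in HPO, and 156, 454 and 172 in CTL, where CTL-b stood above the other CTL pools, and the difference from LPS was -2.16 on the log2 scale, adjusted p = 0.00216. Dnajb1 and Hsp90ab1, a cochaperone and an HSP90, had differences from LPS of -0.73 on the log2 scale, adjusted p = 0.00393 and -0.46 on the log2 scale, adjusted p = 0.00515. The difference from CTL passed the test in none of Hsph1, Hspa1a, Dnajb1 and Hsp90ab1. Hspa4l, a relative of HSP70, had 19.2, 15.3 and 11.5 in COMB, against 7.64, 10.2 and 8.36 in CTL. Its CTL values were all at or below the 20th percentile, so that COMB was at least 1.36-fold higher with the CTL values raised to that level.

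**Figure D5:**
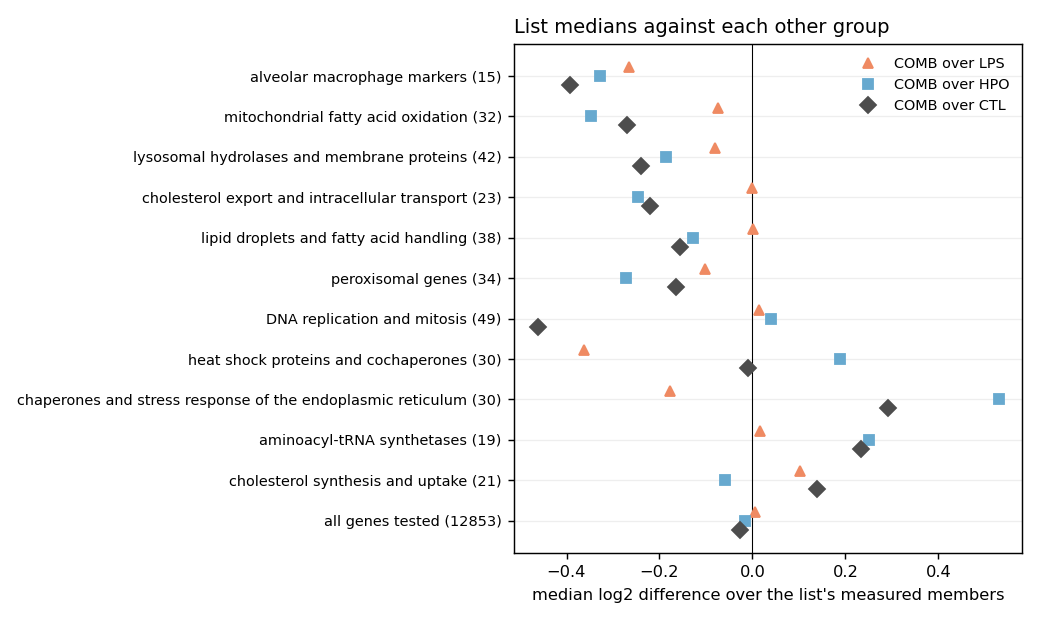
Median log2 difference (x axis) over the measured members of 11 gene lists and over all genes tested, for COMB over LPS (triangles), COMB over HPO (squares) and COMB over CTL (diamonds). Fatty acid oxidation lay at -0.27 against CTL and -0.35 against HPO, mitosis genes were low only against CTL, and heat shock proteins lay at -0.36 against LPS.

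The protein synthesis and degradation machinery shifted upward in parts. Of 36 proteasome subunits 10 rose and 2 fell, and 6 rose without COMB-c, CTL-b or CTL-c. The 3 with the largest rise were the catalytic subunits of the immunoproteasome, which interferon induces. Psmb9 had 1466, 1748 and 2208 in COMB, against 1369 ± 152 in LPS, 670.4 ± 9.73 in HPO, and 774, 978 and 816 in CTL, Psmb10 had 1168, 1236 and 1444 in COMB, against 983 ± 45.8 in LPS, 658 ± 50.5 in HPO, and 726, 598 and 638 in CTL and Psmb8 had 1370.1, 1767 and 1976 in COMB, against 1270.0 ± 47.3 in LPS, 852 ± 38.8 in HPO, and 967, 1003 and 977 in CTL. In each of these genes all COMB pools lay above all CTL pools. Psmc6, a subunit of the regulatory cap, had 258, 254 and 208 in COMB, against 354, 337 and 396 in CTL, a difference of -0.59 on the log2 scale (SE 0.13, adjusted p = 0.00834). Of 19 aminoacyl-tRNA synthetases 7 rose and 1 fell, with a median of 0.23. Wars1, an interferon-induced member, had 891, 879 and 1009 in COMB, against 705 ± 23.8 in LPS, 449 ± 59.4 in HPO, and 518, 489 and 508 in CTL, and Yars1 and Aars1 were 1.56-fold and 1.5-fold higher. Of 45 ribosome biogenesis genes 5 rose (11.1%, the share of all genes) and none fell. Their median was 0.27, and 40 of the 45 log2 differences were above 0. Nop58 had 776, 602 and 851 in COMB, against 476, 481 and 438 in CTL. The number of biogenesis genes that rose was 12 without COMB-b, 3 without COMB-a, COMB-c or CTL-b, and 1 without CTL-c.

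Amino acid genes rose in 13 of 48 cases and fell in 7. Arg1, the arginase of alternatively activated macrophages, had 1791, 3015 and 4049.6 in COMB, against 1639 ± 355 in LPS, 1026 ± 339 in HPO, and 695, 863 and 886 in CTL, a difference of 1.79 on the log2 scale (SE 0.30, adjusted p = 0.00175). Slc7a5, a transporter of large neutral amino acids, and Asns, the asparagine synthetase, were named after their values were seen, with log2 differences of 0.70 and 0.64. Arg2 and Odc1, which lead from arginine toward polyamines, differed by 0.96 and 0.62 and were also named after their values were seen. Ass1, which rebuilds arginine from citrulline, had 137, 63.4 and 86.6 in COMB, against 13, 67.9 and 18.1 in CTL, where CTL-b lay within the COMB range. Its call was lost without CTL-a or CTL-c (highest adjusted p = 0.0713). Fah, the last enzyme of tyrosine breakdown, had 118, 219 and 146 in COMB, against 199 ± 23.9 in LPS, 346 ± 50.8 in HPO, and 398, 336 and 357 in CTL, a difference of -1.21 on the log2 scale (SE 0.19, adjusted p = 0.00115), with COMB and LPS overlapping. Mthfd2, a mitochondrial folate enzyme, had 237, 313 and 289 in COMB, against 135, 176 and 154 in CTL, and Xdh, the xanthine oxidoreductase, had 1542, 1474 and 1648 in COMB, against 1319 ± 261 in LPS, 788 ± 161 in HPO, and 544, 781 and 477 in CTL. The number of lower amino acid genes was 2 without CTL-a and 3 without CTL-c or COMB-c.

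Of the 15 highest genes, all kept their call with any single array left out, which the choice by the same test favours. Of these, 13 were also higher than in LPS and 14 than in HPO, where the shares of all genes were 8.64% and 9.18%. As the genes were chosen on the same COMB arrays, such counts are favoured by the choice and are only a description. Besides chemokines and acute phase proteins the 15 included genes of other roles. Ubd, a ubiquitin-like protein that targets others to the proteasome, had 518, 2984 and 1532 in COMB, against 220.0 ± 22.5 in LPS, 79.8 ± 18.1 in HPO, and 37.8, 85.8 and 80.2 in CTL. Cp, the ferroxidase ceruloplasmin, had 769.9, 387 and 450.1 in COMB, against 252 ± 68.5 in LPS, 37.2 ± 7.18 in HPO, and 11.9, 34.2 and 16.5 in CTL, and COMB was 25.7-fold above CTL (adjusted p = 1.2e-05). Aqp4, a water channel, had 902, 479 and 261 in COMB, against 99.6 ± 38.7 in LPS, 189.8 ± 6.91 in HPO, and 15.4, 22 and 62 in CTL, a difference of 4.07 on the log2 scale (SE 0.50, adjusted p = 0.000224). In Ubd, Cp and Aqp4 all COMB pools lay above all CTL pools, and the airway epithelium sums were also higher in COMB. Among the COMB pools Aqp4 had the order of those sums, while Ubd was lowest in COMB-a, where the sum was highest. The part of these cells was not tested.

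Of 31 metal genes 4 rose (12.9%) and 5 fell (16.1%), against 11% of all genes each way. Some of them differed from both single exposures. Slc11a2, the divalent metal transporter DMT1, had 598, 332 and 389 in COMB, against 143 ± 20.4 in LPS, 106 ± 15.9 in HPO, and 83, 75.1 and 95.9 in CTL. All COMB pools lay above every other array, and COMB was 5.01-fold above CTL (adjusted p = 3.14e-05), with a difference from LPS of 1.58 on the log2 scale, adjusted p = 0.000979 and from HPO of 2.01 on the log2 scale, adjusted p = 0.000129. Mt2A, a metallothionein that binds zinc and copper, had 2213, 1313 and 3262 in COMB, against 1206 ± 63.5 in LPS, 694 ± 23.6 in HPO, and 788, 878 and 664 in CTL. Ncoa4, which delivers ferritin to lysosomes for iron release, had 1961, 1856 and 1421 in COMB, against 2729.7 ± 165 in LPS, 3108 ± 269 in HPO, and 2678, 3114 and 3143 in CTL, a difference of -0.78 on the log2 scale (SE 0.13, adjusted p = 0.00141). Heph, a ferroxidase of iron export, had 178, 80.7 and 46.3 in COMB, against 325, 157 and 275 in CTL, groups that overlapped, and its call was lost without CTL-a, CTL-c, COMB-b or COMB-c (highest adjusted p = 0.12). Among antioxidant genes, Sod2, the mitochondrial superoxide dismutase, had 4387, 4493 and 5026 in COMB, against 3954 ± 120.3 in LPS, 1304 ± 158 in HPO, and 1665, 1768 and 1509 in CTL, and Slc7a11, the cystine importer, had 75.8, 88.7 and 58.6 in COMB, against 26 ± 1.16 in LPS, 23.6 ± 2.89 in HPO, and 21.1, 56.2 and 19.8 in CTL. Gsr, the glutathione reductase, had 72.3, 50.5 and 48.1 in COMB, against 123, 97.3 and 106 in CTL, a difference of -0.94 on the log2 scale (SE 0.16, adjusted p = 0.00145), and Gpx1, a glutathione peroxidase, had 6261, 6802 and 5946 in COMB, against 8427, 7989 and 8160.4 in CTL. In the antioxidant list 6 of 36 genes rose (16.7%) and 3 fell (8.33%), with a median of -0.01. Sod2, Slc7a11 and Prdx6 (1.06 on the log2 scale) were among those that rose. Gsr and Gpx1 were among those that fell, as was Cat of the peroxisomal list. The Slc7a11 call was lost with COMB and CTL arrays only (adjusted p = 0.0675).

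Enzymes of xenobiotic metabolism rose in 13 of 47 cases and fell in 6. Those that rose were mainly glutathione transferases and aldehyde enzymes. Gsta1 had 349.5, 262 and 235 in COMB, against 179.9 ± 9.91 in LPS, 129 ± 30.6 in HPO, and 85.3, 88.7 and 52.4 in CTL, and Ces1d, a carboxylesterase, had 257, 158 and 71.1 in COMB, against 28.1, 37.3 and 26.9 in CTL. Gstp1 and Aldh1a1, named after their values were seen, had 1031, 1109.7 and 782 in COMB, against 297 ± 6.29 in LPS, 398 ± 38.5 in HPO, and 229, 338 and 242 in CTL for Gstp1 and 1109, 1053 and 539 in COMB, against 298 ± 63.3 in LPS, 437 ± 115 in HPO, and 289.9, 253 and 219 in CTL for Aldh1a1. In each of these 4 genes all COMB pools lay above all CTL pools, and Ces1d and Gsta1 were highest in COMB-a. Airway epithelium markers moved in the same arrays, with the sums given above, and their part was not tested. Nat1, an arylamine acetyltransferase, had 171, 165 and 162 in COMB, against 308 ± 24.6 in LPS, 269 ± 11.8 in HPO, and 292, 249 and 301 in CTL, and its difference from LPS was -0.88 on the log2 scale, adjusted p = 0.000634.

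Solute carriers and channels outside these groups moved both ways. Of 125 other solute carriers 18 rose and 18 fell (14.4% each way), and the number that fell was 10 without CTL-a and 12 without CTL-c or COMB-c. Slc9a9, an endosomal sodium-proton exchanger, had 374, 348 and 304 in COMB, against 768 ± 40.3 in LPS, 778 ± 9.12 in HPO, and 904, 712 and 1008 in CTL, a difference of -1.34 on the log2 scale (SE 0.13, adjusted p = 5e-05). Across the 22 alternatives the Slc9a9 difference ran from -1.49 to -0.61. Slc12a8 had 39.6, 52.2 and 31.6 in COMB, against 136, 98.7 and 112 in CTL. Among those that rose, from low CTL signals, were Slc6a14, an amino acid transporter, with 146, 159.6 and 57.1 in COMB, against 9.9, 23.4 and 12.8 in CTL, and Slc22a4, a carnitine and ergothioneine carrier, with 77.7, 54.8 and 27.4 in COMB, against 8.62, 17.7 and 11 in CTL. Of 60 potassium channel genes 3 rose and 2 fell, below the share of all genes. Kcne3, a channel subunit of epithelia, had 158, 130.5 and 114 in COMB, against 46 ± 2.94 in LPS, 43.3 ± 1.39 in HPO, and 41.3, 38.4 and 35.2 in CTL. The COMB values lay above every other array, with a difference from LPS of 1.52 on the log2 scale, adjusted p = 0.00011 and from HPO of 1.60 on the log2 scale, adjusted p = 1.94e-05. Kcnj16 had 89.7, 68.9 and 53 in COMB, against 22.6 ± 3.67 in LPS, 22.8 ± 1.52 in HPO, and 20.9, 15.6 and 19.6 in CTL and Kcnn3, a calcium-activated channel, had 66.4, 57.9 and 62.1 in COMB, against 114, 101 and 107 in CTL.

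MHC class II genes rose in 4 of 8 cases, and CTL-b lay far above the other CTL pools in these genes. Cd74, the invariant chain, had 3129, 3837 and 3769.8 in COMB, against 723 ± 65.5 in LPS, 1179.6 ± 127 in HPO, and 371, 2295 and 1082 in CTL, a difference of 1.87 on the log2 scale (SE 0.45, adjusted p = 0.0132). RT1-Db1 had 1046, 946 and 982 in COMB, against 82.1, 834 and 228 in CTL and RT1-Da 2305, 2209 and 2186 in COMB, against 183, 1809.8 and 613 in CTL. All COMB pools lay above every CTL pool, and the COMB values were close together. The calls of RT1-Db1 and RT1-Da were lost when any array other than that CTL pool was left out (highest adjusted p = 0.089 and 0.0805). With COMB and CTL arrays only, the calls of Cd74, RT1-Db1 and RT1-Da were lost, with an adjusted p of 0.0794 for Cd74. Ciita, the class II transactivator, was named after its values were seen and had 85.9, 109 and 147 in COMB, against 40.3 ± 8.56 in LPS, 27.1 ± 5.65 in HPO, and 22.1, 47 and 41.3 in CTL, a difference of 1.64 on the log2 scale (SE 0.28, adjusted p = 0.00165). Without any single array other than CTL-b, 2 of the 8 genes were higher. None of 7 B cell markers and none of 8 dendritic cell markers were called higher, and 2 of the dendritic cell markers were lower, Cd1d1 and Cd83. The Cd83 call was lost without any single array other than COMB-a (highest adjusted p = 0.134). Without COMB-a 4 of the B cell markers were higher. The T and NK cell markers were higher in 7 of 28 cases with all arrays. That number was 22 without COMB-a, 18 without CTL-b, and 1 without any other array. Ccl5, a chemokine of T cells, had 948, 5044 and 3237 in COMB, against 135, 692 and 608 in CTL. The Ccl5 call was lost with COMB and CTL arrays only (adjusted p = 0.0677).

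Circadian rhythm genes rose in 4 of 21 cases (19%) and none fell, against 11% of all genes each way. Cry1, a repressor of the clock, had 199, 202 and 197 in COMB, against 197 ± 12.7 in LPS, 113 ± 19.4 in HPO, and 104, 96.4 and 112 in CTL, and COMB and LPS overlapped. Rora, an activator of the clock, had 26.8, 45.6 and 37 in COMB, against 13.1 ± 3 in LPS, 15.9 ± 2.82 in HPO, and 12.2, 18.5 and 10.5 in CTL, and COMB lay above all other groups. Per1, named after its values were seen, had 183, 189 and 240.5 in COMB, against 135, 116 and 123 in CTL, a difference of 0.70 on the log2 scale (SE 0.16, adjusted p = 0.0113). Of 40 matrix proteases and inhibitors 4 rose (10%) and 1 fell. Mmp9 had 57.2, 93.8 and 88.7 in COMB, against 18.2 ± 4.56 in LPS, 12.8 ± 2.64 in HPO, and 10.3, 25.3 and 13.5 in CTL and Timp1, an inhibitor of matrix proteases, had 1398, 734 and 1246 in COMB, against 579 ± 42.4 in LPS, 187 ± 54.1 in HPO, and 231, 289.7 and 166 in CTL. Adam8 had 657, 702 and 506 in COMB, against 56.1, 202 and 103 in CTL, and the COMB values of these 3 genes lay above all CTL values.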

How the data were processed

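RNA from lavage cells was hybridised to Affymetrix Rat Genome 230 2.0 arrays, 3 per group. The deposited values were linear intensity values for all probe sets, read with GeneChip Command Console by the authors, and the normalization is not given in the sources used here. With array data the number of arrays limits the precision. For the analysis, the 57 control probe sets were left out, and probe sets were kept where they exceeded the 20th percentile of the array in 3 or more arrays (25692). log2(value + 1) was fitted with limma 3.58.1 in R 4.3.3, with a mean for each group over all 12 arrays. P values were adjusted by Benjamini-Hochberg over all probe sets tested, and genes were called at an adjusted p under 0.05. Of the probe sets, 20832 name 1 gene, 436 several and 9831 none. Each gene takes its values from 1 probe set, that with the highest mean among those naming no other gene. Fold changes are on the log2(value + 1) scale, which understates the change of genes of low signal. The code was tested on simulated data. The members and the gene lists were chosen with earlier results of these data known. Genes named were the 30 lowest and 15 highest among called genes with 2-fold change and no overlap, and up to 3 called genes in each direction of each list. Any other gene is said to be named after its values were seen. Lists were described by counts and medians, without a list test. The results of 1 list are not reported here. Promoters came from RefSeq (GRCr8). Alternatives covered scaling, pseudocount, filter, weights, pairing, the test, the choice of probe set and each array left out.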

Additional observations from a re-analysis of the deposited data

Results flagged for a closer look

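The effect of hypoxia with LPS (COMB minus LPS) was set against the effect of hypoxia without it (HPO minus CTL) by an interaction term fitted with limma. For 5 of the 328 named genes the adjusted p was under 0.05, as it was for 23 of all 12853 genes (0.179%). Named genes were chosen with their COMB and CTL values in view, and the interaction uses the same arrays. Their count is thus favoured by the choice and is only a description. Lap3, the leucine aminopeptidase, had a difference of -2.20 on the log2 scale between COMB and LPS and of -0.45 between HPO and CTL, an interaction of -1.75 (SE 0.28, adjusted p = 0.0411). Nat1, the arylamine acetyltransferase, had -0.88 and -0.06 in the same order, an interaction of -0.83 (SE 0.14, adjusted p = 0.0497). In both genes low oxygen thus went with a lower value in the presence of LPS. The other 3 genes were higher. Ccl20, a chemokine for dendritic and T cells, had 2.79 with LPS and 0.34 without it, an interaction of 2.45 (SE 0.19, adjusted p = 0.000545). Il1a, an alarm cytokine, had 2.27 and -0.78 in the same order, an interaction of 3.05 (SE 0.42, adjusted p = 0.0206). Kcne3, the channel subunit, had 1.52 and 0.18, an interaction of 1.34 (SE 0.17, adjusted p = 0.0206). The airway epithelium sum was also higher in COMB than in LPS, and its part in the last of these genes was not tested.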

How the results depend on the processing

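Of the 2270 higher and 2625 lower probe sets, the t-test of the methods called 215 higher and 329 lower after Benjamini-Hochberg, and 4088 lower without adjustment. Array weights gave 3965 lower. With 1 probe set per gene, which lowers the number tested, 1480 were higher and 1509 lower, and averaging the probe sets of each gene gave 1437 and 1502. Adding a 2-fold limit left 897 higher and 305 lower, and a 2-fold limit with no test gave 1066 and 321. Leaving out single arrays gave 1507 to 2348 higher and 1599 to 2598 lower, both lowest without CTL-c. Without CTL-a there were 1655 lower. The share of higher calls was 46.4%, against 37.1% with arrays centred on their median and 41.1% with quantile normalization. With a replicate block for COMB and CTL pools that share a rat number, 2454 were higher and 2546 lower. These shared numbers do not tie the animals together. The cause of these shifts was not tested.

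Of 328 named genes, none that was called changed direction in the 22 alternatives. A change of sign in a gene called neither in the main fit nor in the alternative was not counted. Those that lost their call numbered 73 without CTL-a, 69 without CTL-c, 63 with COMB and CTL arrays only, and 283 under the t-test after adjustment. The replicate block ended 2 calls. A call could hold while the size of its difference shrank. Across the alternatives, which include averaging all probe sets of a gene, Mgll ran from -1.83 to -1.13 on the log2 scale, against -1.70 in the main fit. Kcne3 ran from 0.92 to 1.88, against 1.77.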
